A study of Mus musculus with 13 samples.

Results

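The cyclins and cyclin-dependent kinase (CDK) inhibitors that set the pace of the G1 phase were followed here as 10 genes: the D-type cyclins Ccnd1, Ccnd2 and Ccnd3, the E-type cyclins Ccne1 and Ccne2, the Cip/Kip inhibitors Cdkn1a, Cdkn1b and Cdkn1c, and the INK4 inhibitors Cdkn2a and Cdkn2c. They were taken by name from the 46958 genes of the deposited count table, and each name had 1 row there. The RNA was that of renal glomeruli, the capillary tufts where the kidney filters blood, isolated on beads from 6-month-old mice of a mixed C57/BL6x129/SVxBALB/c background. Poly(A) RNA was sequenced from 13 libraries: 4 of the genotype labelled kFRA (LCDD), 4 of DH-LMP2A and 5 of wild type (WT). LCDD stands for light chain deposition disease, in which immunoglobulin light chains accumulate in the kidney, and the series asks how such chains act on the glomerulus. The alleles behind kFRA and DH-LMP2A are not described in the sources used here, and neither is whether LCDD mice also carry those of DH-LMP2A. Each library pooled 3 mice, except WT replicates 3, 4 and 5, which came from 1 mouse each.

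Cells commit to division in G1. Mitogens raise the D-type cyclins, which activate Cdk4 and Cdk6, and these kinases together with cyclin E and Cdk2 phosphorylate the retinoblastoma protein and free E2F transcription factors for S phase. INK4 proteins bind Cdk4 and Cdk6 and keep D-type cyclins off them, whereas Cip/Kip proteins bind cyclin and CDK complexes and block Cdk2 above all. In the glomerulus the podocyte, the epithelial cell of the filter, is a non-dividing cell known for high Cdkn1c, while mesangial and endothelial cells can re-enter the cycle after injury.

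Total counts ran from 16687509 to 30587890 per library, and no gene of the podocyte, mesangial or glomerular endothelial lists was at 0 in any library. Podocyte markers summed to 8020 to 35933 CPM (read counts scaled to the library size with TMM factors, the trimmed mean of M-values), against 53.2 to 3319 CPM for proximal tubule markers. The sample titles carry a code of unstated meaning, NS161202, NS170411, NS171018 or NS180319. LCDD and DH-LMP2A have 1 library under each code, whereas WT has none under NS170411 and its 3 single-mouse libraries under NS180319. The summed CPM of 4 Y-linked genes was 18.0 to 220.2 in LCDD, 68.3 to 222.8 in DH-LMP2A and 0 to 27.0 in WT. WT thus also differs from the other genotypes in sex composition, although WT replicate 2, at 27.0 CPM, lay above LCDD replicates 2 and 4. For every comparison with WT the genotype and the sex composition cannot be told apart. LCDD and DH-LMP2A were not matched in sex composition either. LCDD replicates 2 and 4 had 21.1 and 18.0 CPM, against 222.8 and 126.1 CPM in the DH-LMP2A libraries of the same codes. These are bulk samples, in which fewer cells of a type and less RNA per cell cannot be told apart.

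Levels were ranked per length, as mean CPM per kilobase of the summed exon length in the table. In WT the podocyte-associated inhibitor Cdkn1c led at 561 ± 222 CPM per kilobase (SD, n = 5), followed by Ccnd1 at 85.0 ± 18.4 and Cdkn1a at 43.2 ± 13.95 (SD, n = 5 each). The libraries of these 3 genes did not overlap with those of the next in order. Cdkn1b at 15.4 ± 1.55, Ccnd3 at 15.01 ± 2.06 and Ccnd2 at 10.9 ± 1.90 CPM per kilobase (SD, n = 5 each) came next, and neighbours among these 3 overlapped. Cdkn2c followed without overlap on either side, at 2.12 ± 0.634 CPM per kilobase, above Ccne1 at 0.183 ± 0.112, Ccne2 at 0.173 ± 0.0655 and Cdkn2a at 0.168 ± 0.152 (SD, n = 5 each), which overlapped one another.

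The order changed little between genotypes. Cdkn1c led and Ccnd1 came next in each, and the libraries of these 2 genes overlapped in LCDD, at 370 ± 216 and 127 ± 55.8 CPM per kilobase (SD, n = 4 each), but not in DH-LMP2A, at 514 ± 136 and 69.0 ± 37.3 (SD, n = 4 each). Cdkn1a, which followed in each, overlapped with the next in order in LCDD, at 35.4 ± 14.5, and in DH-LMP2A, at 16.5 ± 9.54 (SD, n = 4 each). Ccnd1 made up 76.2% ± 3.22 (SD, n = 5) of the summed D-type cyclin level per length in WT, against 80.1% ± 4.25 for LCDD and 72.3% ± 6.12 for DH-LMP2A (SD, n = 4 each). Cdkn1c made up 90.0% ± 2.28 (SD, n = 5) of the Cip/Kip level in WT, 94.1% ± 2.58 for DH-LMP2A and 83.8% ± 12.1 for LCDD (SD, n = 4 each), where it ran from 67.2% to 94.5%.

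**Figure D1:**
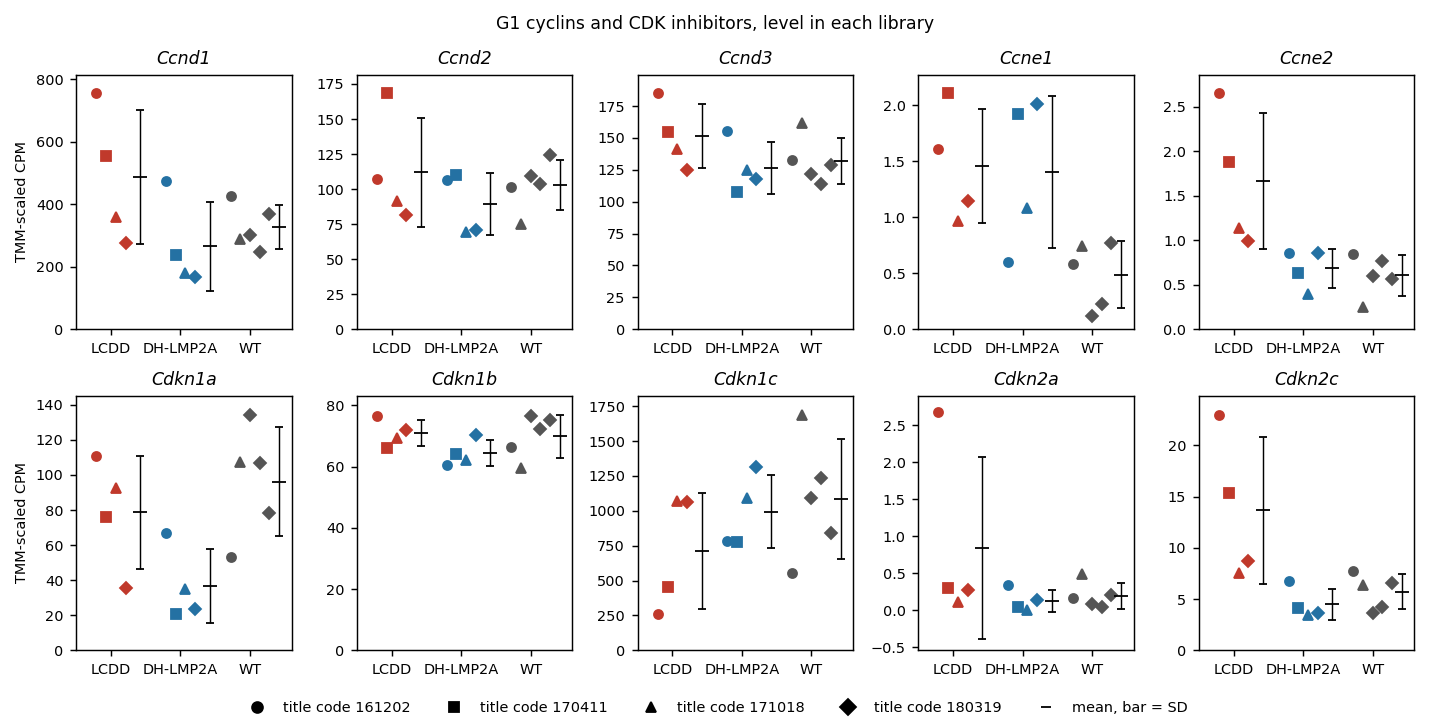
TMM-scaled CPM (vertical axes, each starting at 0 except for Cdkn2a, whose SD bar passes below it) of the 10 genes in each library, by genotype (horizontal axes, colours); the marker shape gives the title code, and the short line with its bar the mean and SD. All 4 LCDD libraries lie above all DH-LMP2A libraries for Ccne2 and Cdkn2c, and Cdkn1c runs from 264 to 1690 CPM.

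LCDD was compared with DH-LMP2A, the comparison in which every library has a partner of the same code. Cdkn2c was higher in LCDD. The edgeR quasi-likelihood test, with p-values adjusted over all 16738 genes tested, called 1 of the 9 members tested at an adjusted p under 0.05, where 2.00% of all genes were called in either direction and 1.30% as higher. An unadjusted p under 0.05 was reached by 4 members, Ccnd1, Ccne2, Cdkn1a and Cdkn2c, against 13.1% of all genes. The fitted change was above 0 for 8 of the 9 tested members, with a median log2 fold change of 0.33, against -0.0061 for all genes. Same-code libraries correlated in their deviations from genotype means (0.153 to 0.593), and so did some libraries of different codes (up to 0.524). With the code as a block in the fit 3 members were called, Ccnd1, Ccne2 and Cdkn2c, where 1021 genes were called in place of 334, or 6.10% of all genes. Under 4 of 4 codes LCDD was higher for Ccnd1, Ccnd2, Ccnd3, Ccne2, Cdkn1a, Cdkn1b and Cdkn2c. Ccne1 was higher under 2 of 4 and Cdkn1c under 0 of 4. The share of all genes with 1 direction under every code was not computed.

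Against WT, the same test called 0 of the 9 tested members in LCDD, where 1.84% of all genes were called. Unadjusted p-values under 0.05 were found for 3 members, Ccne1, Ccne2 and Cdkn2c (12.0% of all genes), and DESeq2 called 2, Ccne2 and Cdkn2c, where it called 742 genes, or 3.78% of those it tested. DH-LMP2A against WT also gave 0 called members by edgeR, where 0.627% of all genes were called, with an unadjusted p under 0.05 for Ccne1 and Cdkn1a (12.5% of all genes), and DESeq2 called 1, Cdkn1a, where it called 474 genes, or 2.48%. The 3 comparisons share libraries, so their values are set side by side and not counted against each other.

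**Figure D2:**
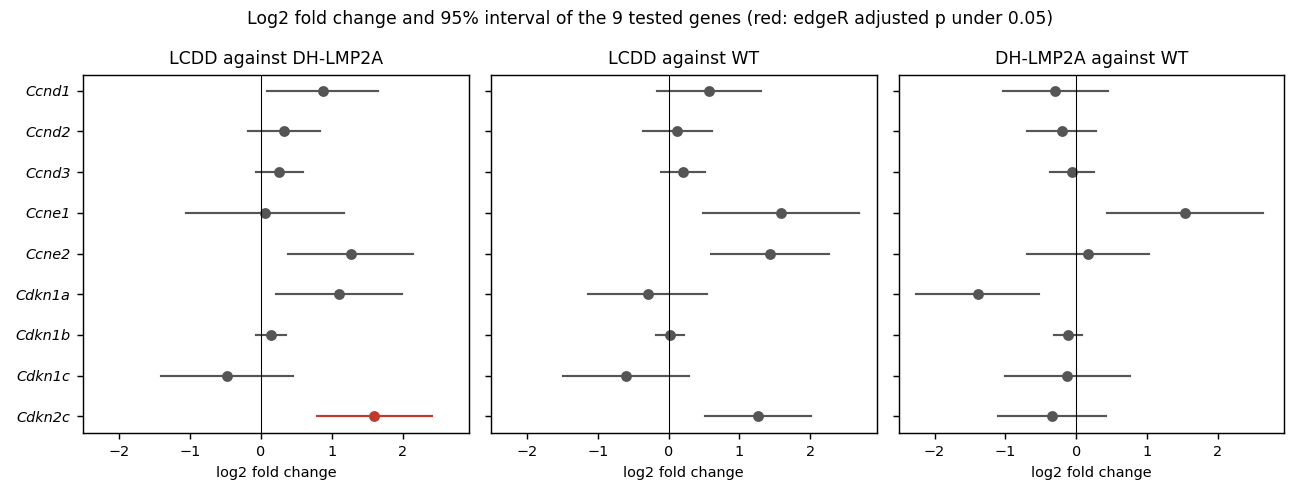
Log2 fold change (horizontal axes) of the 9 tested genes in the 3 comparisons, with bars for the 95% interval; red marks an edgeR adjusted p under 0.05. Cdkn2c at 1.60 in LCDD against DH-LMP2A is the 1 red point, and the intervals of Ccne1 exclude 0 in both comparisons with WT but not in LCDD against DH-LMP2A.

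Among the D-type cyclins, Ccnd1 (chromosome 7, 144929931 to 144939869, minus strand) is the mitogen-responsive partner of Cdk4 and Cdk6. LCDD replicates 1 to 4 had 754, 555, 358 and 276 CPM, DH-LMP2A replicates 1 to 4 had 474, 237, 181 and 167 CPM, and WT replicates 1 to 5 had 425, 289, 301, 246 and 368 CPM. LCDD replicates 1 and 2 stood above every other library, while replicates 3 and 4 lay within the range of the other genotypes. The log2 fold change against DH-LMP2A was 0.88 ± 0.363 (SE), with an edgeR adjusted p of 0.308. Under each code LCDD was above DH-LMP2A, by 0.67 to 1.23 on the log2 scale in 4 of 4 pairs, and with the code as a block the difference of 0.90 passed the threshold (edgeR adjusted p = 0.0287). It also passed without DH-LMP2A replicate 1 (1.32, edgeR adjusted p = 0.0488). Against WT the log2 fold change was 0.58 ± 0.340 (SE, edgeR adjusted p = 0.586), and for DH-LMP2A against WT it was -0.30 ± 0.343 (SE, edgeR adjusted p = 0.755).

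Ccnd1 moved with the cell type markers. LCDD replicates 1 and 2 had the lowest summed podocyte markers of all 13 libraries, 8020 and 14252 CPM, and the highest Ccnd1. In each genotype the NS161202 library, replicate 1, had the highest Ccnd1 and the lowest podocyte sum. That sum was 16943 CPM for DH-LMP2A and 16162 CPM for WT. Over the 13 libraries the Pearson correlation of log2 CPM of Ccnd1 with the mean log2 CPM of the podocyte markers was -0.828 (Spearman -0.687, and Pearson -0.607 without the 2 libraries farthest from the median), and with that of the 9 glomerular endothelial markers it was 0.814 (Spearman 0.896, and 0.668 without the 2 farthest), as descriptions of values that share a library. With the podocyte marker level in the model, the log2 fold change of Ccnd1 against DH-LMP2A was 0.46 (edgeR adjusted p = 0.249), and with the tubule marker level it was 1.10 (edgeR adjusted p = 0.0197). In LCDD against DH-LMP2A, 0 of the 11 podocyte markers were called and their median log2 fold change was -0.43. The part of cell content in the Ccnd1 difference was not tested beyond these fits. Exons of Ccnd1 share 818 bases, 21.3% of its exon length, with Oraov1 on the other strand, and the strand setting of the counting is not stated.

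Ccnd2 (chromosome 6, 127125162 to 127152193, minus strand), a D-type cyclin of many proliferating cells, had 81.4 to 168 CPM in LCDD, 69.4 to 110.0 CPM in DH-LMP2A and 75.2 to 125 CPM in WT. Only LCDD replicate 2, at 168 CPM, stood outside the range of the others. Its log2 fold changes were 0.33 ± 0.237 (SE, edgeR adjusted p = 0.624) against DH-LMP2A and 0.12 ± 0.224 (SE, edgeR adjusted p = 0.928) against WT, and without LCDD replicate 2 they were 0.039 and -0.18. Ccnd3 (chromosome 17, 47505051 to 47599691, plus strand), the most broadly expressed D-type cyclin, had 125 to 185 CPM in LCDD, 108 to 156 CPM in DH-LMP2A and 114 to 161 CPM in WT. The 3 ranges overlapped, with log2 fold changes in LCDD of 0.26 ± 0.153 (SE, edgeR adjusted p = 0.522) against DH-LMP2A and 0.20 ± 0.145 (SE, edgeR adjusted p = 0.693) against WT. The 95% interval against DH-LMP2A ran from -0.18 to 0.84 for Ccnd2 and from -0.069 to 0.59 for Ccnd3.

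The E-type cyclins, which activate Cdk2 at the entry to S phase, were near the lower end of detection. Ccne2 (chromosome 4, 11191351 to 11204779, plus strand) had 69, 50, 21 and 25 counts in LCDD replicates 1 to 4, which is 2.65, 1.88, 1.13 and 0.986 CPM. DH-LMP2A replicates 1 to 4 had 0.861, 0.630, 0.400 and 0.851 CPM from 7 to 23 counts, and WT replicates 1 to 5 had 0.841, 0.247, 0.601, 0.761 and 0.568 CPM from 4 to 26 counts. Every LCDD library was above every library of the other genotypes. Such a gap held for 2 members against DH-LMP2A, Ccne2 and Cdkn2c, where 4.74% of all genes had every LCDD library higher, and for 2 members against WT, Ccne1 and Ccne2, where 2.97% of all genes did.

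The log2 fold change of Ccne2 was 1.27 ± 0.410 (SE) against DH-LMP2A, an edgeR adjusted p of 0.159, and 1.44 ± 0.385 (SE) against WT, an edgeR adjusted p of 0.0871. LCDD was higher under 4 of 4 codes against DH-LMP2A, by 0.20 to 1.53 on the log2 scale, and under 3 of 3 against WT, by 0.57 to 1.88. With the code as a block the difference from DH-LMP2A was 1.25 (edgeR adjusted p = 0.0384). Against WT it was called by DESeq2 (adjusted p = 0.0221) and by edgeR with the code as a block (1.43, edgeR adjusted p = 0.0397), not by edgeR without the block. DH-LMP2A and WT differed by 0.17 ± 0.398 (SE, edgeR adjusted p = 0.897), with a 95% interval of -0.69 to 1.03. Exons of Ccne2 share 609 bases, 17.4% of its exon length, with Ints8 on the other strand.

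Ccne1 (chromosome 7, 38097984 to 38107534, minus strand) had its lowest mean in WT and like means in LCDD and DH-LMP2A. LCDD replicates 1 to 4 had 42, 56, 18 and 29 counts, DH-LMP2A replicates 1 to 4 had 16, 52, 19 and 45, and WT replicates 1 to 5 had 18, 12, 3, 5 and 19. In CPM, LCDD ran from 0.970 to 2.11, DH-LMP2A from 0.599 to 2.01 and WT from 0.120 to 0.771, so all LCDD libraries and 3 of the 4 DH-LMP2A libraries were above all of WT. The log2 fold change against WT was 1.59 ± 0.509 (SE) in LCDD (edgeR adjusted p = 0.168) and 1.53 ± 0.511 (SE) in DH-LMP2A (edgeR adjusted p = 0.232). LCDD and DH-LMP2A differed by 0.056 ± 0.515 (SE, edgeR adjusted p = 0.977), with a 95% interval of -1.06 to 1.17. Both differences from WT were smaller without the single-mouse WT libraries, at 1.12 and 1.07, and with the Y-linked marker level in the model, at 1.11 and 0.93. The part of sex composition in the Ccne1 difference was not tested further.

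Of the Cip/Kip inhibitors, Cdkn1a (chromosome 17, 29090979 to 29100722, plus strand) encodes p21, which p53 induces. LCDD replicates 1 to 4 had 111, 75.8, 92.4 and 35.5 CPM, DH-LMP2A replicates 1 to 4 had 67.0, 20.6, 35.001 and 23.7 CPM, and WT replicates 1 to 5 had 53.5, 107, 134, 107 and 78.4 CPM. DH-LMP2A held the 3 lowest values of all 13 libraries, LCDD replicate 4 was next, and DH-LMP2A replicate 1 lay above WT replicate 1. The log2 fold change was 1.10 ± 0.413 (SE) in LCDD against DH-LMP2A (edgeR adjusted p = 0.241), -1.39 ± 0.401 (SE) in DH-LMP2A against WT (edgeR adjusted p = 0.166) and -0.29 ± 0.388 (SE) in LCDD against WT (edgeR adjusted p = 0.883). LCDD was above DH-LMP2A under 4 of 4 codes, by 0.58 to 1.87 on the log2 scale. Against WT, DH-LMP2A was below under 2 of 3 codes, with differences from -2.13 to 0.33. DH-LMP2A against WT was called by DESeq2 (adjusted p = 0.0239) and by edgeR without DH-LMP2A replicate 1 (-1.86, edgeR adjusted p = 0.0479). Glomerular endothelial markers moved with Cdkn1a over all libraries but not within WT. Over the 13 libraries the Pearson correlation of its log2 CPM with the mean log2 CPM of these 9 markers was 0.723 (Spearman 0.527, and Pearson 0.553 without the 2 libraries farthest from the median), as a description. After genotype means were removed it was 0.508. WT replicates 1 and 5 had the highest endothelial means of WT, 9.677 and 9.858, and its lowest Cdkn1a. With the parietal epithelial markers the correlation was -0.601, and -0.153 after genotype means were removed. The 9 markers summed to 5332 to 12197 CPM in LCDD, 3731 to 9622 CPM in DH-LMP2A and 7884 to 12054 CPM in WT. Their median log2 fold change was -0.64 in DH-LMP2A against WT and 0.52 in LCDD against DH-LMP2A, with 0 of 9 called in either, and their part in the Cdkn1a difference was not tested.

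Cdkn1b (chromosome 6, 134920401 to 134925513, plus strand) encodes p27, an inhibitor regulated mostly through its breakdown. LCDD replicates 1 to 4 had 76.4, 66.2, 69.3 and 72.1 CPM, DH-LMP2A had 60.6 to 70.4 CPM and WT had 59.6 to 76.6 CPM, so the ranges overlapped throughout. Its coefficient of variation was 6.10% to 10.1% within genotypes, the lowest of the 10 members, the others lying at 13.7% or more. Its log2 fold change was 0.14 ± 0.0972 (SE, edgeR adjusted p = 0.609) against DH-LMP2A, with a 95% interval of -0.068 to 0.35, and 0.020 ± 0.0922 (SE, edgeR adjusted p = 0.976) against WT, with an interval of -0.18 to 0.22.

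Cdkn1c (chromosome 7, 143458350 to 143461050, minus strand) encodes p57, which marks differentiated podocytes. LCDD replicates 1 to 4 had 264, 456, 1072 and 1063 CPM, DH-LMP2A replicates 1 to 4 had 787, 773, 1095 and 1317 CPM, and WT replicates 1 to 5 had 552, 1690.3, 1094, 1238 and 844 CPM. LCDD replicates 1 and 2 were the lowest of all libraries, and replicates 3 and 4 lay within the range of the others. The log2 fold change was -0.48 ± 0.431 (SE) against DH-LMP2A (edgeR adjusted p = 0.715) and -0.60 ± 0.413 (SE) against WT (edgeR adjusted p = 0.67). It was the 1 tested member below 0 in LCDD against DH-LMP2A, and LCDD was below DH-LMP2A under 4 of 4 codes, with differences of -1.58 to -0.030.

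Cdkn1c followed the podocyte markers across libraries. Over the 13 libraries its log2 CPM had a Pearson correlation of 0.946 and a Spearman correlation of 0.918 with the mean log2 CPM of the 11 podocyte markers, given as a description, since the values share a library and its scaling. The Pearson correlation was 0.822 without the 2 libraries farthest from the median of the podocyte level and 0.936 after genotype means were removed. With the podocyte level in the model the log2 fold change of Cdkn1c in LCDD was -0.12 against DH-LMP2A and 0.0067 against WT (edgeR adjusted p = 0.861 and 0.992). Summed podocyte markers ran from 8020 to 32795 CPM in LCDD, 16943 to 32878 CPM in DH-LMP2A and 16162 to 35933 CPM in WT.

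**Figure D3:**
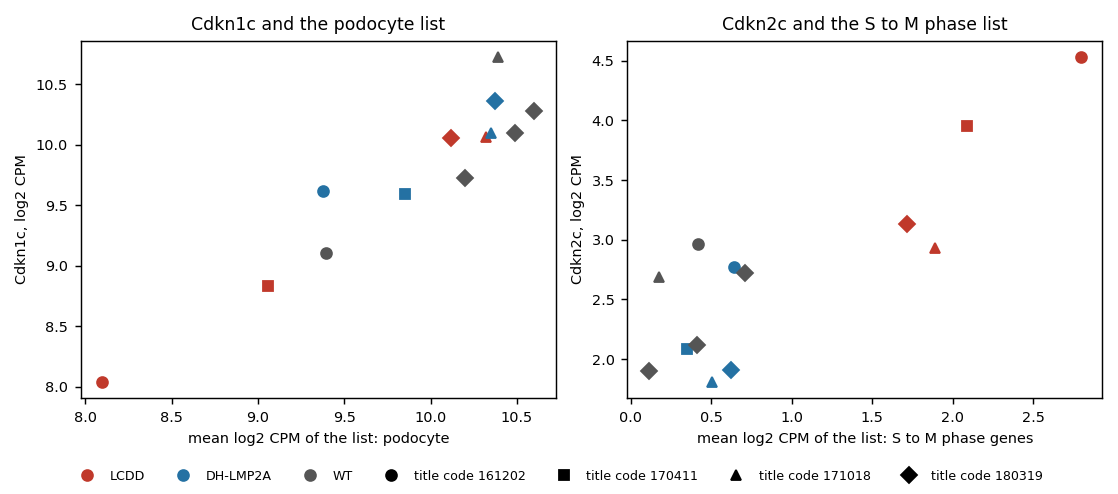
Left, log2 CPM of Cdkn1c (vertical axis) against the mean log2 CPM of the 11 podocyte markers (horizontal axis); right, log2 CPM of Cdkn2c (vertical axis) against the mean log2 CPM of the S to M phase list (horizontal axis). Each point is 1 of the 13 libraries, with colours for genotype and shapes for title code; on the left the points rise together from LCDD replicate 1, the lowest, and on the right the 4 LCDD libraries stand apart on the list's axis, with no other library above 0.71.

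The INK4 inhibitors were Cdkn2c, the member that was called, and Cdkn2a. Cdkn2c (chromosome 4, 109660876 to 109667189, minus strand) encodes p18, an inhibitor of Cdk4 and Cdk6 whose gene E2F factors are known to induce. RefSeq promoter windows on GRCm38.p6 were at hand for 6 of the 10 members, in 10 windows of which the 250 bases before the start site were searched on both strands, and Ccnd1, Ccnd2, Ccne2 and Cdkn1c had none. The motifs were the E2F site (TTTCCCGC, TTTCGCGC, TTTGGCGC or TTTGCCGC), the GC box (GGGCGG), the E-box (CACGTG), the cAMP response element CRE (TGACGTCA), the AP-1 site (TGANTCA) and the cell cycle homology region CHR (TTTGAA or TTCGAA). All 32851 windows of the table held them in 1.86%, 32.7%, 6.02%, 1.55%, 6.75% and 17.1%, in that order. Matches of the E2F site and the GC box can share bases. The E2F letters were found in a window of 1 member, Cdkn2a. Printed here are 3 windows, for the called member and for the locus with a pair of separate products, with motif matches in capitals.
Cdkn2c, downstream start, chr4:109665373-109665609, minus strand: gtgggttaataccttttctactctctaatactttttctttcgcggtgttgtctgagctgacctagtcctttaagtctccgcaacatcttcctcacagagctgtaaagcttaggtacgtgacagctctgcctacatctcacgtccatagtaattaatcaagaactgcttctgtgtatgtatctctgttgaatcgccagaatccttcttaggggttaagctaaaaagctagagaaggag
Cdkn2a, upstream start, chr4:89294654-89294869, minus strand: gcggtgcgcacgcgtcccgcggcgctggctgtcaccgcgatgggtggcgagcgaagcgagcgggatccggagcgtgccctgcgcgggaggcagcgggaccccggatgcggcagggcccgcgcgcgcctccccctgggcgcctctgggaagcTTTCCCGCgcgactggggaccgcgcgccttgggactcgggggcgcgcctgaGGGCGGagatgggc
Cdkn2a, downstream start, chr4:89282193-89282442, minus strand: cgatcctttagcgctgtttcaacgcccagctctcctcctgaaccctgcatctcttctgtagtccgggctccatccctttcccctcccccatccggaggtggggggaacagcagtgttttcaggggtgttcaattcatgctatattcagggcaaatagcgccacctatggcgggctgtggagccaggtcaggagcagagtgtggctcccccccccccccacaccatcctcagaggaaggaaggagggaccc

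The Cdkn2c window above held none of the 6 motifs, and its upstream window, which lies inside the deposited exons and is not shown, held GC boxes at -95, -51 and -40 from the start site. In the upstream Cdkn2a window the E2F letters lie at -99 and GC boxes at -48 and -14, of which the last is outside the stretch shown, and the downstream window held no match. GC boxes were also found in windows of Ccnd3, Ccne1, Cdkn1a and Cdkn1b. These matches describe letters only.

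Cdkn2c had 600, 409, 140 and 220 counts in LCDD replicates 1 to 4, which is 23.0, 15.4, 7.54 and 8.68 CPM. DH-LMP2A replicates 1 to 4 had 6.74, 4.15, 3.43 and 3.67 CPM from 60 to 180 counts, and WT replicates 1 to 5 had 7.73, 6.36, 3.64, 4.25 and 6.53 CPM from 91 to 239 counts. All LCDD libraries were above all DH-LMP2A libraries, while LCDD replicate 3 lay below WT replicate 1. The NS161202 library, replicate 1, was the highest of each genotype. Means were 13.7 ± 7.14 CPM for LCDD and 4.50 ± 1.52 CPM for DH-LMP2A (SD, n = 4 each), and 5.70 ± 1.70 CPM for WT (SD, n = 5). The log2 fold change against DH-LMP2A was 1.60 ± 0.373 (SE), or 3.03-fold, with a 95% interval of 0.79 to 2.41 and an edgeR adjusted p of 0.0472. Under the 4 codes LCDD was above DH-LMP2A by 1.12 to 1.87 on the log2 scale, and the blocked difference was 1.53 (edgeR adjusted p = 0.00739). Against WT it was 1.26 ± 0.345 (SE, edgeR adjusted p = 0.097, DESeq2 adjusted p = 0.0224), higher under 3 of 3 codes by 0.24 to 1.56. With the code as a block Cdkn2c was not called against WT. DH-LMP2A was at -0.34 ± 0.351 (SE, edgeR adjusted p = 0.726) against WT.

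The call of Cdkn2c against DH-LMP2A was close to the threshold. It was lost with no filter on low counts (edgeR adjusted p = 0.0546), with RLE size factors (0.0521), with the Y-linked marker level in the model (0.0523) and in a fit of these 2 genotypes alone (0.101). It was also lost when LCDD replicate 1 (0.138) or 2 (0.129) or DH-LMP2A replicate 2 (0.161), 3 (0.145) or 4 (0.147) was left out, with log2 fold changes of 1.23 to 1.65 throughout. Markers of several cell types moved with Cdkn2c. Over the 13 libraries its Pearson correlation with the marker level was 0.857 for mesangial and -0.838 for podocyte markers, as a description. It was 0.569 for glomerular endothelial and 0.417 for distal tubule markers. After genotype means were removed these values were 0.623, -0.93, 0.796 and 0.828, in that order. Mesangial markers summed to 4332 to 8355 CPM in LCDD, 3086 to 4040 CPM in DH-LMP2A and 3575 to 4431 CPM in WT. Of the 8 mesangial markers 2 were called higher against DH-LMP2A, where 1.30% of all genes were. With the podocyte level in the model Cdkn2c stayed called, at a smaller log2 fold change of 1.07 (edgeR adjusted p = 0.00965), and with the tubule level it was 1.74 (edgeR adjusted p = 0.0027). Against WT the podocyte level brought it from 1.26 to 0.54 (edgeR adjusted p = 0.14). The part of mesangial content was not tested.

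**Figure D4:**
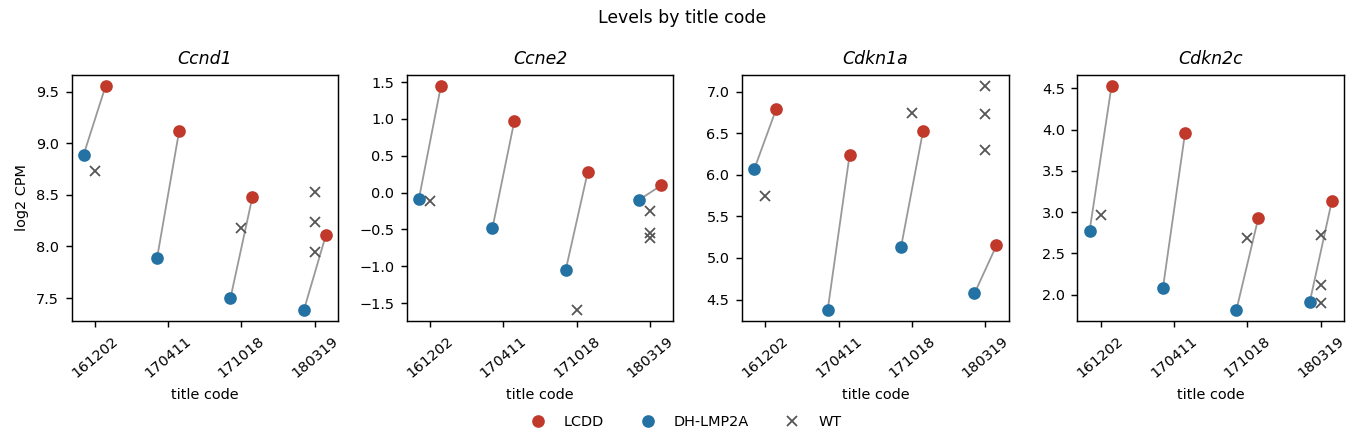
Log2 CPM (vertical axes) of Ccnd1, Ccne2, Cdkn1a and Cdkn2c by title code (horizontal axes); grey lines join the LCDD (red) and DH-LMP2A (blue) libraries of a code, and crosses are WT libraries. Every line rises from DH-LMP2A to LCDD, by 1.12 to 1.87 for Cdkn2c and by 0.20 to 1.53 for Ccne2. The 4 genes drawn are the members with an unadjusted edgeR p under 0.05 in this comparison, so the rise is no separate result.

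Cdkn2a (chromosome 4, 89274471 to 89294653, minus strand) yields p19Arf from the upstream start and p16Ink4a from the downstream start, and counts per gene do not separate these. LCDD replicates 1 to 4 had 70, 8, 2 and 7 counts, DH-LMP2A replicates 1 to 4 had 9, 1, 0 and 3, and WT replicates 1 to 5 had 5, 8, 2, 1 and 5. Only LCDD replicate 1, at 2.69 CPM, stood apart, and 6 of the 13 libraries were at or under a floor of 3 counts, 0.0971 to 0.185 CPM. The gene did not pass the filter on low counts. Without the filter its log2 fold change in LCDD was 2.59 ± 1.01 (SE, edgeR adjusted p = 0.36) against DH-LMP2A and 2.13 ± 0.907 (SE, edgeR adjusted p = 0.465) against WT.

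Other genes of the G1/S pathway were read from lists, which were chosen with earlier results of these data known. Counts of called genes therefore describe these lists and do not test them. In LCDD 1.30% of all genes were called higher against each of the other genotypes. The kinases and their partners had 0 of 8 genes called in LCDD against either genotype, with a median log2 fold change of 0.17 against DH-LMP2A and 0.11 against WT. Nearest to the threshold were Cdk2, the partner of cyclin E, at 0.43 ± 0.128 (SE, edgeR adjusted p = 0.14) against WT, and Mnat1, a subunit of the CDK-activating kinase, at 0.42 ± 0.140 (SE, edgeR adjusted p = 0.175) against DH-LMP2A. Cdk4, the partner of the D-type cyclins, had means of 91.0 ± 12.3 CPM for LCDD and 78.1 ± 14.8 CPM for DH-LMP2A (SD, n = 4 each), and of 77.1 ± 3.99 CPM for WT (SD, n = 5). The remaining INK4 genes Cdkn2b and Cdkn2d were not called, at 0.69 and 0.35 against DH-LMP2A on the log2 scale (edgeR adjusted p = 0.6 and 0.521).

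Among 13 pocket proteins and E2F factors, 2 rose against DH-LMP2A, E2f8 by 2.24 ± 0.462 (SE, edgeR adjusted p = 0.0276) and E2f7 by 1.81 ± 0.392 (SE, edgeR adjusted p = 0.0342). These atypical repressor E2Fs are themselves made in S phase. Against WT 1 rose, E2f8, by 2.25 ± 0.429 (SE, edgeR adjusted p = 0.0166), and the list medians were 0.19 and 0.035. The share of all genes called higher was 1.30% in each comparison. E2f8 had 11 to 55 counts in LCDD, 2 to 13 in DH-LMP2A and 3 to 10 in WT. In LCDD against DH-LMP2A leaving out single libraries gave log2 fold changes of 1.66 to 1.97 for E2f7 and 1.88 to 2.72 for E2f8. It left 0 to 3 of the list called higher, with 0 without LCDD replicate 1 or 2 or DH-LMP2A replicate 2, 3 or 4, and 1, E2f8, without LCDD replicate 4 (edgeR adjusted p = 0.0412) or DH-LMP2A replicate 1 (0.0146). Without LCDD replicate 3 both were called (edgeR adjusted p = 0.0262 for E2f7 and 0.014 for E2f8). Against WT, 0 were left without LCDD replicate 1 or 2 or WT replicate 3, 4 or 5, and 2 without WT replicate 1.

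Of 20 S-phase genes known as E2F targets, 3 rose against DH-LMP2A, Mcm6, Cdc6 and Rrm2, and 4 against WT, Cdc6, Gins2, Rrm2 and Tk1, with medians of 0.45 and 0.41. Over all genes, 1.30% were called higher in each comparison. Mcm6, a subunit of the replicative helicase, had 26.5, 34.4, 17.9 and 18.7 CPM in LCDD replicates 1 to 4 and 3.36 to 5.95 CPM in DH-LMP2A, and the log2 difference was 2.44 ± 0.280 (SE, edgeR adjusted p = 0.00075). WT, at 12.6 to 24.98 CPM, overlapped with LCDD (0.41, edgeR adjusted p = 0.599) and lay above all of DH-LMP2A (-2.03 in DH-LMP2A against WT, edgeR adjusted p = 0.0044). Cdc6, which loads that helicase, was 1.91 ± 0.344 (SE, edgeR adjusted p = 0.0121) higher against WT, and Rrm2, a subunit of ribonucleotide reductase, 2.15 ± 0.411 (SE, edgeR adjusted p = 0.0167). Gins2, a part of the moving helicase, was 1.86 ± 0.411 (SE, edgeR adjusted p = 0.0362) higher against WT. With the title code as a block 5 were called against DH-LMP2A, the further ones being Gins2 (1.25, edgeR adjusted p = 0.0364) and Tk1 (1.48, edgeR adjusted p = 0.0412). The blocked fit called 6.10% of all genes in either direction, 543 of them higher. Leaving out single libraries left 1 to 3 of the list called there, with Mcm6 alone left without LCDD replicate 1 or 2 or DH-LMP2A replicate 2, 3 or 4, and 1 to 5 against WT, with 1 without WT replicate 3 or 5, and 2 without WT replicate 4 or LCDD replicate 1 or 2.

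The S to M phase list, 24 genes of which 23 were tested, had 13 genes called higher against DH-LMP2A and 16 against WT, where 1.30% of all genes were called higher in each comparison, with medians of 1.88 and 1.90 on the log2 scale and 0 called lower. As the list was chosen with earlier results of these data known, its distance from that share is a description only. Top2a, Ccnb2 and Foxm1, a topoisomerase, a mitotic cyclin and a transcription factor of late cycle genes, were higher against WT by 2.62, 2.55 and 1.65 (edgeR adjusted p = 0.000775, 0.00224 and 0.000698). Mki67, a marker of cycling cells, was higher by 2.62 against DH-LMP2A and by 2.30 against WT (edgeR adjusted p = 0.00152 and 0.00177). Foxm1 was not called against DH-LMP2A (0.80, edgeR adjusted p = 0.0629), except with the title code as a block (0.81, edgeR adjusted p = 0.0453), with DESeq2 (adjusted p = 0.00242) or with the tubule marker level in the model (edgeR adjusted p = 0.0378). In DH-LMP2A against WT Foxm1 was at 0.84 ± 0.190 (SE, edgeR adjusted p = 0.0728). Top2a and Ccnb2 were at -0.052 and 0.29 there (edgeR adjusted p = 0.967 and 0.772). Summed over the list, LCDD replicates 1 to 4 had 243, 157, 129 and 118 CPM, in which replicates 1 and 2 led as for Cdkn2c, Ccne2 and Ccnd1, against 42.3 to 48.8 CPM in DH-LMP2A and 34.3 to 52.1 CPM in WT. Against DH-LMP2A the count was 18 with the title code as a block, 19 with DESeq2 and 18 with the tubule marker level, and 6 to 15 without single libraries (6, 6 and 7 without DH-LMP2A replicates 2, 3 and 4). Of all genes, the block, DESeq2 and tubule fits called 543, 491 and 590 higher, in that order, in place of 218. Mki67, Top2a and Ccnb2 were called there in all the alternatives run. Against WT the count was 3 without the single-mouse WT libraries and 0 with the Y-linked marker level in the model, with larger standard errors. Mki67 was then at 2.92 ± 0.326 (SE, edgeR adjusted p = 0.00453) and 3.00 ± 0.584 (SE, edgeR adjusted p = 0.0947) in that order, Top2a at 2.58 and 2.33 (edgeR adjusted p = 0.0742 and 0.29), Ccnb2 at 2.48 and 2.09 (0.141 and 0.438) and Foxm1 at 1.83 and 1.45 (0.0209 and 0.22).

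**Figure D5:**
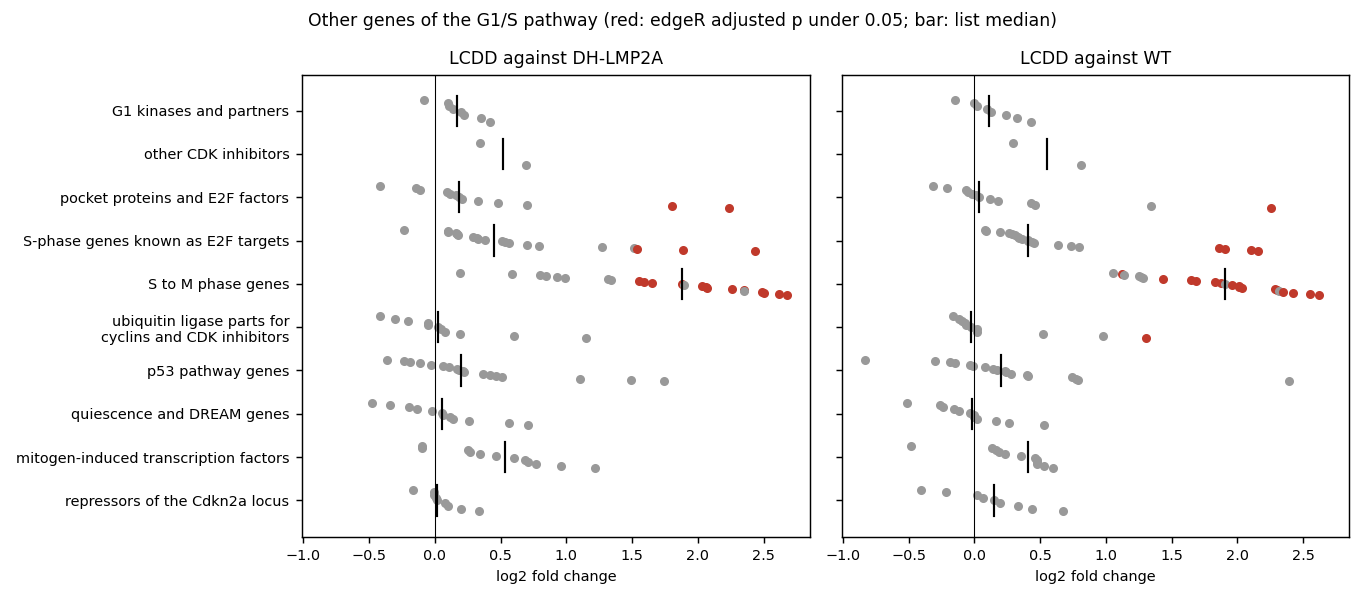
Log2 fold change (horizontal axes) of the tested genes of each pathway list (vertical axis) in LCDD against DH-LMP2A and against WT; each point is a gene, red marks an edgeR adjusted p under 0.05, and the black bar is the list median. The S to M phase list lies at medians of 1.88 and 1.90, and 3 of the other 9 lists have medians under 0.15 against both genotypes.

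The regulators upstream and downstream of the inhibitors showed few calls. Of 11 ubiquitin ligase parts that degrade cyclins and CDK inhibitors, 0 were called against DH-LMP2A and 1 against WT, Cks1b, which helps target p27, at 1.31 ± 0.274 (SE, edgeR adjusted p = 0.0275), a call lost without LCDD replicate 1 or 2 or WT replicate 3, 4 or 5 (edgeR adjusted p = 0.0616 to 0.0883). Of 18 p53 pathway genes, 0 were called in LCDD against either genotype (medians of 0.20 and 0.20), and nearest to the threshold were the receptor Eda2r at 1.49 ± 0.356 (SE, edgeR adjusted p = 0.0515) against DH-LMP2A and the membrane protein Perp at 2.39 ± 0.674 (SE, edgeR adjusted p = 0.108) against WT. With the title code as a block 4 of them were called higher against DH-LMP2A, Phlda3, Eda2r, Aen and Perp, by 0.51 to 1.60 (edgeR adjusted p = 0.00857 to 0.0318). That fit called 6.10% of all genes in either direction, 543 of them higher in place of 218. Of 12 quiescence and DREAM complex genes 0 were called, with Lin9 at 0.57 (edgeR adjusted p = 0.32) against DH-LMP2A. Of 12 tested mitogen-induced transcription factors 0 were called, with medians of 0.53 and 0.41 and Mycn at 1.22 ± 0.313 (SE, edgeR adjusted p = 0.0692) against DH-LMP2A, and past the threshold in the blocked fit (1.16, edgeR adjusted p = 0.0276). Of 9 repressors of the Cdkn2a locus 0 were called, with the methyltransferase Ezh2 at 0.67 ± 0.217 (SE, edgeR adjusted p = 0.169) against WT. In DH-LMP2A against WT, Mcm6 was the 1 gene called among all these lists.

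Members also moved with one another across libraries. Over the 13 libraries, Pearson correlations of log2 CPM were 0.88 between Ccnd1 and Cdkn2c, 0.787 between Ccnd1 and Ccnd3 and 0.763 between Ccne2 and Cdkn2c. With Cdkn1c they were -0.807 for Ccnd1, -0.79 for Ccne2 and -0.784 for Cdkn2c. These values share each library's scaling and cell content and describe these libraries only, and after genotype means were removed the Ccnd1 and Cdkn2c value was 0.868 and the Ccne2 and Cdkn2c value 0.509.

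The genes most like each member were sought among 10981 tested genes whose mean reached 5 CPM or more, by Pearson correlation of log2 CPM over the 13 libraries. Cdkn1c was matched most closely, by Galnt10 (0.987), Metrnl (0.983) and Aif1l (0.981). Ccnd1 was nearest to Cyp4f16 (0.973), H2afz (0.972) and B4galt4 (0.967), and Ccnd3 to Pisd (0.965), Bax (0.961) and Ap1s1 (0.959). Cdkn2c was nearest to Dapp1 (0.954), Kpna2 (0.94) and Lgals1 (0.938), Ccnd2 to Reep1 (0.946), Ubn1 (0.908) and Paqr8 (0.905), and Ccne2 to Rpap2 (0.928), Lin9 (0.888) and Impact (0.882). Ccne1 was nearest to Tspan4 (0.917), Dbp (0.896) and Tef (0.882), Cdkn1a to Imp4 (0.902), Mmp15 (0.896) and Pcdh12 (0.883), and Cdkn1b to Serinc1 (0.927), Dpp8 (0.924) and Mbnl2 (0.92). The best match of each member lay between 0.902 and 0.987.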

How the data were processed

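Raw counts of reads per gene were deposited as a single table for 13 libraries, made with featureCounts per the file headers. The submitters' processing notes name STAR 2.4.0a, Subread 1.5.0-p3, featureCounts, DESeq2, mm10 and GRCm38, with no role or order. The strand setting and the treatment of multiply mapping reads are not given in the sources used here. Coordinates are those of the table, and the 10 members matched GENCODE M21 on GRCm38 by symbol and position.

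Testing used edgeR 4.0.16 in R 4.3.3. After filterByExpr (minimum count 10), 16738 genes were left, including 9 of the 10 members. All libraries entered 1 quasi-likelihood model with TMM scaling and a coefficient per genotype, with Benjamini-Hochberg adjustment over all genes tested. A gene was called at an adjusted p under 0.05. Each standard error was taken from the log2 fold change and its F statistic, and 95% intervals use the degrees of freedom of the fit. CPM is scaled by TMM, with a prior count of 2 for log2 CPM. A floor of 3 counts covers counting error only.

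The members and the gene lists were chosen with earlier results of these data known. All members are named. Of each pathway list at most 4 called genes are named, by smallest p in LCDD against either genotype, and otherwise the 1 or 2 with the smallest p. Cdk4, Tk1, Phlda3 and Aen were named after their values were seen. For each tested member the 3 genes most like it are named, leaving out predicted genes and other members.

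Replicates are numbered by accession order. The title codes pair LCDD with DH-LMP2A libraries, so it was asked whether libraries of a code deviate from their genotype means in the same way across genes. All 4 pairs correlated above 0.1 (0.153 to 0.593, mean 0.421). Pairs of different codes ran from -0.599 to 0.524, with a mean of -0.139. Deviations from a genotype mean cancel within a genotype, so the same-code and different-code means depend on each other. Their gap is therefore no separate evidence of pairing. LCDD replicate 2 correlated more with DH-LMP2A replicate 1 (0.524) than with its same-code partner (0.153). Blocked values are given for LCDD against DH-LMP2A as an alternative. The labels do not say that libraries hold different mice, so p-values measure the spread between these libraries. No library appeared to be deposited a second time: chi-square values per degree of freedom within a genotype were 12.6 or more in all 22 pairs.

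On counts simulated for LCDD against DH-LMP2A with 16738 genes, the fit recovered 50% of genes changed by 1 on the log2 scale and 90.2% of those changed by 2, with 10 false calls. Changes were placed only in genes with a mean above 2 CPM, and no deviation shared by a title code was simulated. The recovery therefore does not apply to genes with lower means, such as Ccne1 and Ccne2. Alternatives were DESeq2 1.42.0, RLE size factors, no filter, a fit without the third genotype, the title code as a block, marker levels of tubule, podocyte or Y-linked genes as covariates, leaving out the single-mouse WT libraries and leaving out each library. For the lists they were added after seeing the data.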

Additional observations from a re-analysis of the deposited data

How the results depend on the processing

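Over the tested members and the alternatives that keep all libraries or leave out the 3 single-mouse ones, 206 values kept their direction and side of the threshold, 17 changed sign, 7 newly passed the threshold and 4 no longer did. Leaving out single libraries gave 217, 10, 2 and 5 in that order. Genes called in LCDD against DH-LMP2A numbered 823 with DESeq2, 213 with only the 2 genotypes and 1057 with the tubule markers as covariate, and 113 to 484 without single libraries. Members called there numbered 0 with no filter, with only the 2 genotypes, with RLE size factors and with the Y-linked covariate, 2 with the tubule covariate, and 0 to 2 without single libraries. Against WT, genes called in LCDD numbered 742 with DESeq2, 185 with only the 2 genotypes, 54 without the single-mouse WT libraries, 23 with the Y-linked covariate and 159 to 441 without single libraries. DESeq2 called 2 members there. DH-LMP2A against WT gave 474 genes and 1 member with DESeq2, 802 with the podocyte covariate, 775 with the tubule covariate, 69 without the single-mouse WT libraries, 36 with the Y-linked covariate, and 29 to 407 genes and 0 to 1 member without single libraries.

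Of the S-phase list, genes called higher against DH-LMP2A numbered 1 with no filter or only the 2 genotypes and 7 with the tubule covariate, and against WT 1 with only the 2 genotypes, 2 with the podocyte covariate and 0 both with the Y-linked covariate and without single-mouse WT libraries. Of the pocket protein and E2F list, 1 was called against DH-LMP2A with only the 2 genotypes, and against WT 2 with DESeq2 and 0 both with the Y-linked covariate and without single-mouse WT libraries, where E2f8 was 2.45 ± 0.868 and 2.21 ± 0.698 (SE) in that order against 2.25 ± 0.429 (SE). Of the p53 list, genes called higher against DH-LMP2A numbered 2 with DESeq2 and 3 with the tubule covariate, and Mycn was called in both. Over all genes these 2 fits called 491 and 590 higher, in that order. Perp was called against WT with DESeq2 (adjusted p = 0.00954) and the block (edgeR adjusted p = 0.00263). Cks1b was not called with only the 2 genotypes, the podocyte or Y-linked covariate, the block or without the single-mouse WT libraries.

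Values that changed sign were not called under the alternative. In LCDD against DH-LMP2A, Ccne1 was -0.15 with the podocyte covariate and -0.20 to 0.28 without single libraries. In LCDD against WT, the podocyte covariate gave Ccnd1 -0.076, Ccnd2 -0.11 and Cdkn1c 0.0067, the tubule covariate Ccnd2 -0.067, the Y-linked covariate Ccnd3 -0.13, Cdkn2b -0.094 and Cdkn2d -0.17, and Cdkn1b was -0.0044 with DESeq2, -0.0080 with no filter and -0.0052 with RLE size factors. Without single libraries Ccnd2 ran from -0.18 to 0.25 and Cdkn1b from -0.064 to 0.047. In DH-LMP2A against WT, the Y-linked covariate gave Ccnd2 0.33 and Cdkn1b 0.062, the podocyte covariate Cdkn1c 0.13, the tubule covariate Ccne2 -0.12 and Cdkn1c 0.60, and Cdkn1b was 0.0064 without the single-mouse WT libraries. Without single libraries Ccnd3 ran from -0.17 to 0.014, Ccne2 from -0.021 to 0.35 and Cdkn1c from -0.29 to 0.076. The causes were not tested.

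With the title code as a replicate block, LCDD against DH-LMP2A gave 1021 genes, 543 higher and 478 lower in place of 218 and 116, and 3 members. The WT comparisons, where the lowest same-code correlations were -0.165 and -0.159, gave 536 genes and 1 member (Ccne2, 1.43, edgeR adjusted p = 0.0397) for LCDD and 562 genes and 0 members for DH-LMP2A. The block turned Ccnd2 to -0.075 in LCDD and Cdkn1c to 0.20 in DH-LMP2A. Depth limits Cdkn2a, at the floor in 6 of 13 libraries, and both E-type cyclins.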
